A study of Mus musculus with 4 samples.

Results

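The FOS and JUN family is made up of 7 genes, 4 FOS genes (*Fos*, *Fosb*, *Fosl1* and *Fosl2*) and 3 JUN genes (*Jun*, *Junb* and *Jund*). They were taken by gene symbol from the 24369 genes measured by RNA-seq in CD4 T cells, and all 7 had enough counts to be tested. There were 4 libraries, 2 of empty vector cells (EV RV) and 2 of cells given the retrovirus that encodes Tox (Tox RV). In both groups naive CD4 T cells from the spleens of wild-type C57BL/6 mice were activated by anti-CD3 on the plate and anti-CD28 in solution, with IL-2 (recombinant human) and no polarizing cytokines. They were transduced on day 2, restimulated on day 5 and sorted as GFP+ cells. The restimulation lasted 5 h (by the methods, with biotinylated anti-CD3 and streptavidin), and 2 mice stand behind each group. The empty vector is MSCV-IRES-eGFP and the Tox vector MSCV-Tox-IRES-eGFP, so the expression of Tox was driven by a viral promoter in cells that had already been activated, and both groups carried GFP. The age of the mice behind these libraries was not given in the sources used here.

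FOS and JUN proteins are the subunits of AP-1, a transcription factor that binds DNA as a dimer through a basic region and a leucine zipper. JUN proteins pair with each other, with FOS proteins or with BATF, whereas FOS proteins need a partner such as a JUN protein. In T cells AP-1 is formed after signals from the T cell receptor and CD28 reach the MAP kinases, and it binds beside NFAT or IRF4 at composite sites in cytokine genes. *Fos* is known as an immediate early gene, which is transcribed quickly after stimulation and whose mRNA is short-lived. The study considered JunB, with BATF and IRF4, as a partner of Tox on DNA, and the comparison here addresses whether the transcripts of the family differed when Tox was expressed.

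The JUN genes each have 1 exon and the FOS genes have 4. In RefSeq on GRCm38.p6, the build whose chromosome coordinates mm10 shares, *Jun* lies on chromosome 4 from 95049036 to 95052222 (minus strand) and *Junb* on chromosome 8 from 84976909 to 84978748 (minus strand). *Jund* is also on chromosome 8, from 70697739 to 70700616 (plus strand). *Fos* lies on chromosome 12 from 85473890 to 85477274 (plus strand), *Fosb* on chromosome 7 from 19302696 to 19310118 (minus strand), *Fosl1* on chromosome 19 from 5447698 to 5455938 (plus strand) and *Fosl2* on chromosome 5 from 32136472 to 32157840 (plus strand). All 7 are protein coding. *Fosl1* shares 2776 bases with *Ccdc85b*, which had 528 to 995 counts in a library, and use of strand in counting is not stated, so reads there could belong to either gene. No other member overlaps an annotated RefSeq gene. *Fosb* was counted on 1 transcript, so its full-length and truncated (delta FosB) forms were not told apart.

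RefSeq promoter windows were at hand for 6 of the 7 genes, all but *Fosl1*. The 130 bases before the start site are shown for *Jun* and *Fosl2*, the members with non-overlapping groups below, and for *Junb* and *Fos*, the other members most often named in AP-1 dimers. They are at chr4:95052223-95052352 (minus strand), chr5:32136342-32136471 (plus strand), chr8:84978749-84978878 (minus strand) and chr12:85473760-85473889 (plus strand) of GRCm38.p6, and capitals mark TGACATCA, TGACG or TATAAA.
Jun: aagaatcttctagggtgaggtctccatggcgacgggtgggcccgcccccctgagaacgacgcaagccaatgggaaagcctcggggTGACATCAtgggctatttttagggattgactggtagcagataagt
Fosl2: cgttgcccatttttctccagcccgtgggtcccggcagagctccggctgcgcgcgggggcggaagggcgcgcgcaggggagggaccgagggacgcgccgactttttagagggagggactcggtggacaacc
Junb: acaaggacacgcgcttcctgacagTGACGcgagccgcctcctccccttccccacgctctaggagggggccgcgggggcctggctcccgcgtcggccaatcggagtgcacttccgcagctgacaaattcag
Fos: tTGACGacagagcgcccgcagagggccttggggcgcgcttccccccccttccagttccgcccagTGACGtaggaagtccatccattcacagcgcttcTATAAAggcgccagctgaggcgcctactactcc
The TGACATCA in *Jun*, a variant of the AP-1 site known as jun1, begins 45 bases before the start. Over the 250 bases before the start, on both strands, this word was found in 2.93% of 32851 promoter windows and in 1 of the 6 genes. TGACG, the core of the site bound by CREB and ATF factors, was found in 17.8% of windows and in 3 of the 6 genes, *Fos*, *Fosb* and *Junb*. In *Fos* it begins 129 and 66 bases before the start, in *Junb* 106 and in *Fosb* 60. Distances are from the start used in the promoter table, which for *Fosb* (base 19310045) lies inside the gene span given above and for the other 5 genes is the 5′ end of that span. The AP-1 site TGACTCA was found in 4.46% of windows, the full CRE TGACGTCA in 1.55% and the CArG box of SRF in 1.47%. Each was found in 0 of the 6 genes within these 250 bases. Sequence farther upstream was not searched, so a site there would be missed. None of the TGACG matches in these genes belongs to a full CRE. The GC box GGGCGG was found in 32.7% of windows and in 4 of the 6 genes, CCAAT in 33.8% and 2, and TATAAA in 12.4% and 1 (*Fos*). These are matches of letters, and factors were not measured on them.

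*Tox*, the gene carried by the retrovirus, was at 11.7 and 5.73 CPM in the empty vector libraries (replicate 1, then 2, here and below) against 121 and 99.9 CPM in those with Tox RV (CPM, counts per 1000000 after TMM scaling), so each library was on the side of its label. The totals were 46989997 to 74548723 expected counts per library. EV RV replicate 1 stood apart, at -53.8 on the first principal component (58.0% of the variance) with the other libraries at 5.70 to 25.8, and the 45S pre-rRNA *Rn45s* took 24.8% of its counts against 7.14% to 11.97% in the others. All 8 T cell markers were detected, with *Cd4* at 174 to 250 TPM, *Cd3g* at 451 to 763 TPM and *Thy1* at 301 to 547 TPM. The summed CPM of 6 markers of CD8 T and NK cells was 16.5 to 56.6 in EV RV and 11.3 to 32.9 in Tox RV libraries, higher in replicate 1 of each group, with *Klrk1* and *Klrd1* the most abundant and *Ncr1* at 0 in each library. The sum of 5 B cell markers was 1.16 to 1.62 CPM in EV RV and 1.42 to 1.52 CPM in Tox RV libraries, mostly *Cd79a* and *Cd79b*, with *Ms4a1* and *Pax5* at 0. That of 7 myeloid markers was 4.64 to 6.08 CPM in EV RV and 4.66 to 6.21 CPM in Tox RV libraries, mostly *Cd68*. *Fcer1g* was at 0.23 to 0.71 CPM and *Lyz2* at no more than 0.05 TPM. A part of these in the results below was not tested.

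JUN transcripts were far more abundant than FOS transcripts in all 4 libraries. TPM (transcripts per 1000000 transcripts, a level per transcript length) is used to compare levels between genes. The 3 JUN genes summed to 647 and 640 TPM in the EV RV libraries against 604 and 557 TPM in the Tox RV libraries. The 4 FOS genes summed to 27.8 and 21.1 TPM in the EV RV libraries, against 20.1 and 13.6 TPM in the Tox RV libraries. In both sums the Tox RV values were below both EV RV values, by little in the FOS sum (20.1 against 21.1 TPM). The sums were not tested, and 34.7% of single genes did not overlap in TPM, in either direction. In bulk RNA, fewer cells with a transcript and less of it in each cell cannot be told apart. JUN transcripts were 23.3 and 30.3 times as abundant as FOS transcripts in the EV RV libraries, against 30.1 and 41.1 times in the Tox RV libraries, so the groups overlapped in this ratio.

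*Junb* and *Jund* made up most of the family in each library. *Junb*, whose protein pairs with BATF at composite sites with IRF4, was at 306.9 and 305 TPM in the EV RV libraries, against 360.0 and 288 TPM in the Tox RV libraries. *Jund*, which is known for steady expression in many tissues, was at 255 and 283 TPM in EV RV, against 209 and 235 TPM in Tox RV cells. These levels placed *Junb* 328th and *Jund* 432nd among the 14143 genes tested by mean TPM. *Jun*, the founding member, was at 85.2 and 53.0 TPM in EV RV, against 34.5 and 33.9 TPM in Tox RV cells. Its 2 Tox RV libraries were close to each other and below both EV RV libraries, of which replicate 1 was the higher.

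*Fosl2*, which encodes Fra-2, was the most abundant FOS gene in each library. It was at 16.6 and 12.6 TPM in the EV RV libraries, against 10.3 and 6.33 TPM in the Tox RV libraries. *Fos* was at 9.52 and 7.33 TPM in EV RV, against 7.86 and 5.54 TPM in Tox RV cells. The order of the 2 genes was the same in every library, but in the Tox RV group *Fosl2* of replicate 2 was below *Fos* of replicate 1. *Fosl1*, which encodes Fra-1, was at 0.95 and 0.46 TPM in EV RV, against 1.31 and 0.76 TPM in Tox RV cells. *Fosb* was at 0.71 and 0.75 TPM in EV RV, against 0.58 and 0.93 TPM in Tox RV cells. The libraries of *Fosl1* and *Fosb* overlapped in both groups, so these last 2 places in the order were not separated. The order from *Junb* through *Jund*, *Jun* and *Fosl2* had no overlap between neighbouring genes in either group.

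**Figure D1:**
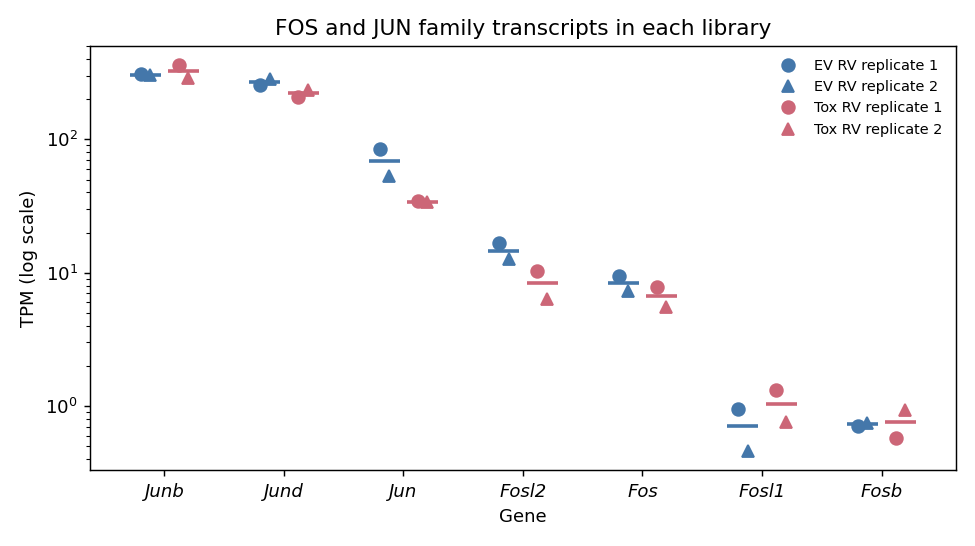
TPM (log axis) of the 7 genes in EV RV (blue) and Tox RV (red) libraries, with circles for replicate 1, triangles for replicate 2 and a bar at the mean of 2 libraries. *Junb* and *Jund* lie above 200 TPM in each library, while *Fosl1* and *Fosb* lie at 0.46 to 1.31 TPM.

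As a share of the summed TPM of the family, *Junb* took 45.5% and 46.1% in the EV RV libraries, against 57.7% and 50.4% in the Tox RV libraries. The Tox RV shares were both higher, but a share also depends on the other genes. In Tox RV replicate 2 the *Junb* level, 288 TPM, was below both EV RV levels (306.9 and 305 TPM). The sum of the 7 genes there was 570 TPM, against 675 and 661 TPM in the EV RV libraries. *Jun* took 12.6% and 8.02% in EV RV, against 5.53% and 5.94% in Tox RV libraries, and these shares did not overlap either. *Fosl2* took 2.46% and 1.90% in EV RV, against 1.65% and 1.11% in Tox RV libraries. The share of *Jund* overlapped between the groups, at 37.8% and 42.7% in EV RV, against 33.6% and 41.3% in Tox RV libraries, as did those of *Fos*, *Fosb* and *Fosl1*. Shares within a library do not depend on how libraries are scaled to each other.

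**Figure D2:**
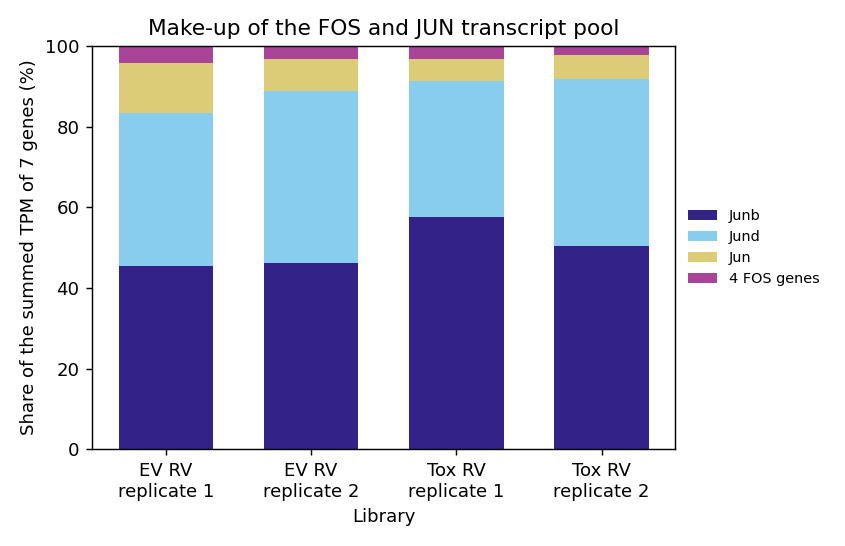
Share (%) of the summed TPM of the 7 genes taken by *Junb*, *Jund*, *Jun* and the 4 FOS genes together, 1 bar per library. The *Jun* segment is 12.6% and 8.02% in the EV RV libraries, against 5.53% and 5.94% in the Tox RV libraries.

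Between the groups, the Tox RV libraries of *Jun* and *Fosl2* were each below those of EV RV, and the other 5 genes overlapped. None of these differences passed the test. Of the 7 genes, 0 had an adjusted p-value below 0.05 in edgeR's quasi-likelihood test, where 0% of the 14143 genes tested were called and 3.62% had an unadjusted p-value below 0.05. *Jun* and *Fosl2* were 2 of those 512 genes. *Tox* was not called by edgeR either (log2 fold change 3.675, adjusted p = 0.490), but was by DESeq2 (adjusted p = 3.79e-24). A count of 0 in edgeR is therefore not read as a lack of change in the family. With DESeq2, the tool named in the methods, 0 of the 7 were called, against 0.121% of the 18183 genes that it gave an adjusted p-value. The 2 genes with non-overlapping groups are 28.6% of the family. Across all genes tested 36.0% did not overlap, and 17.4% did not overlap with Tox RV lower, and nothing particular to the family is read from its count. The log2 fold changes had a median of -0.19 over the 7 genes and of 0.0036 over all genes tested, with 3 members above 0 and 4 below. With 2 libraries against 2, an exact permutation test cannot give a two-sided p below 1 in 3.

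*Jun* had the largest fitted log2 fold change of the family with all 4 libraries and TMM scaling, an order that changed with scaling by library totals and in 3 of the 4 fits without 1 library, where *Fosl1* or *Fosl2* came first. It was measured at 155 and 101 CPM with the empty vector (6538 and 7718 counts), against 68.1 and 66.9 CPM with Tox RV (4309 and 3470 counts). The EV RV mean was 128 ± 37.9 CPM (SD, n = 2), while the Tox RV mean was 67.5 ± 0.870 CPM (SD, n = 2). The log2 fold change was -0.92 (standard error, SE, 0.24 and 95% interval -1.52 to -0.33), with an adjusted p-value of 0.897 in edgeR and of 0.255 in DESeq2. This corresponds to 52.7% of the EV RV level, with an interval of 34.9% to 79.5% that is not adjusted for the number of genes tested. By unadjusted p-value *Jun* ranked 68th of 14143 genes. The size rested in part on EV RV replicate 1, without which the log2 fold change was -0.59. Without EV RV replicate 2, leaving replicate 1 as the lone EV RV library, it was -1.19 with an adjusted p-value of 0.0287 in edgeR, in a fit that called 600 genes of 14408.

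*Fosl2* was measured at 57.0 and 45.4 CPM with the empty vector, against 38.5 and 23.6 CPM with Tox RV. The Tox RV libraries differed from each other by 0.71 on the log2 scale, about the size of the difference between the groups. The log2 fold change was -0.72 (SE 0.28, 95% interval -1.42 to -0.027), with an adjusted p-value of 0.897 in edgeR and of 0.9995 in DESeq2. It was -0.41 without Tox RV replicate 2 and -1.12 without Tox RV replicate 1.

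*Fos* overlapped between the groups, at 11.2 and 9.04 CPM in the EV RV libraries, against 10.004 and 7.05 CPM in the Tox RV libraries. Its log2 fold change was -0.24 (SE 0.26, 95% interval -0.88 to 0.40). *Fosb* was at 1.54 and 1.71 CPM in EV RV, against 1.37 and 2.20 CPM in Tox RV cells, or a log2 fold change of 0.13 (SE 0.36, 95% interval -0.76 to 1.02). Its 2 Tox RV libraries lay on either side of the EV RV libraries. *Fosl1* rested on few counts, 37 and 34 with the empty vector and 84 and 40 with Tox RV. Before scaling for depth, only Tox RV replicate 1 had counts (95% Poisson interval 67.0 to 104, counting error only) clear of the others, whose intervals ran from 23.5 to 54.5. The log2 fold change of *Fosl1* was 0.69 (SE 0.52, 95% interval -0.59 to 1.98), so neither an unchanged level nor a doubling was outside its interval. The adjusted p-values of these genes ran from 0.897 to 0.950 in edgeR.

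*Junb* and *Jund*, the most abundant members, had the smallest SE of the family. *Junb* was at 311 and 324 CPM in EV RV, against 396 and 316 CPM in Tox RV cells, with Tox RV replicate 2 between the EV RV libraries. Its log2 fold change was 0.17 (SE 0.18), and the 95% interval ran from 81.8% to 154% of the EV RV level. *Jund* was at 418 and 488 CPM in EV RV, against 374 and 420 CPM in Tox RV cells, and its log2 fold change was -0.19 (SE 0.18), with a 95% interval of 64.8% to 118% of the EV RV level. Whether *Jund* overlapped depended on the scaling, since Tox RV replicate 2 was just above EV RV replicate 1 by TMM but below it by TPM (235 against 255 TPM) and with median-of-ratios scaling. The adjusted p-values were 0.902 for *Junb* and 0.897 for *Jund* in edgeR.

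**Figure D3:**
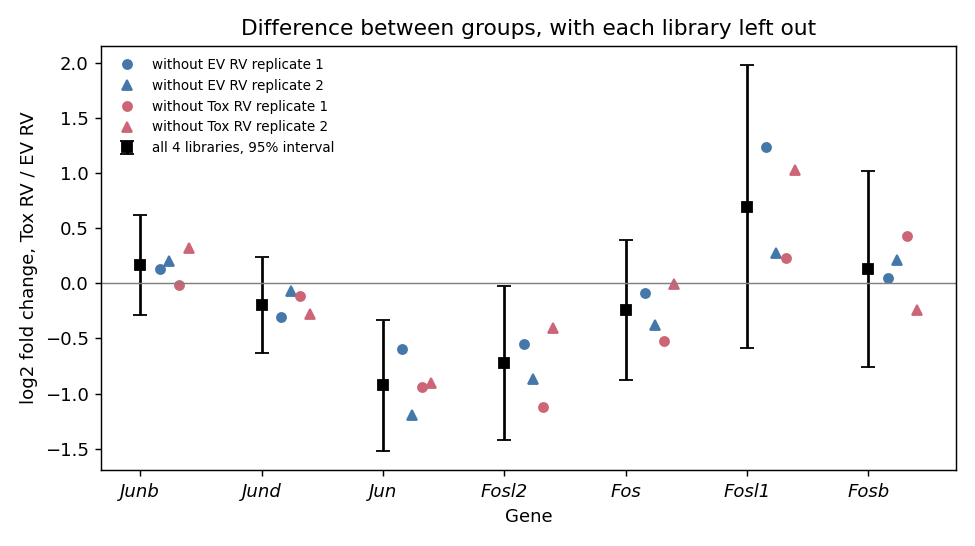
Log2 fold change of Tox RV over EV RV for each gene (black squares, bars for the 95% interval of edgeR's quasi-likelihood fit, 2 libraries per group), with coloured points for the fits without 1 library. *Jun* and *Fosl2* stay below 0 in each fit, from -1.19 to -0.59 and from -1.12 to -0.41. Their groups do not overlap, so leaving out 1 library could hardly change the sign.

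The ratio of 2 genes within a library does not depend on the scaling of libraries. Of the 21 pairs in the family, 11 had ratios of TPM that did not overlap between the groups, among them 5 of the 6 pairs with *Jun* and 3 of the 6 with *Fosl2*. Over all pairs of genes tested 34.5% did not overlap, and the ratio of *Jun* to each other gene did not overlap for 84.2% of genes and that of *Fosl2* for 65.9%. The counts for *Jun* and *Fosl2* within the family are therefore read as no more than their own differences, and the pairs share genes and are not independent. *Junb* was 3.60 and 5.75 times as abundant as *Jun* in the EV RV libraries, against 10.4 and 8.49 times in the Tox RV libraries. The mean log2 ratio was 2.19 ± 0.48 (SD, n = 2) with the empty vector and 3.24 ± 0.21 (SD, n = 2) with Tox RV. *Jund* was 2.99 and 5.33 times as abundant as *Jun* in EV RV, against 6.07 and 6.95 times in Tox RV cells. The pair of *Jun* that overlapped was that with *Fosl2*, at 5.13 and 4.22 in EV RV, against 3.34 and 5.35 in Tox RV libraries. *Fosl2* was 1.75 and 1.72 times as abundant as *Fos* in the EV RV libraries, against 1.31 and 1.14 times in the Tox RV libraries.

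The FOS genes varied more between the 2 Tox RV libraries than most genes. The log2 difference of replicate 1 from replicate 2 in Tox RV cells was 0.50 for *Fos*, -0.66 for *Fosb*, 0.76 for *Fosl1* and 0.71 for *Fosl2*, while the median absolute difference over all genes tested was 0.17. Between 7.74% and 15.8% of the genes tested differed by more than these 4. The genes tested are of any depth, whereas *Fosb* and *Fosl1* rested on few counts. Among the 16 early genes listed below the same difference ran from -0.13 to 1.24, so such a spread was not limited to FOS genes. *Fosb* went the other way from the other FOS genes. The JUN genes differed by 0.026 (*Jun*), 0.32 (*Junb*) and -0.17 (*Jund*) in the same libraries. Between the EV RV libraries the order was different, with 0.61 for *Jun*, 0.92 for *Fosl1* and -0.062 for *Junb*, and a median absolute difference over all genes of 0.38.

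For each member the gene with the nearest profile over the 4 libraries was found among 8512 or 8513 genes of at least 10 CPM, by the Euclidean distance of log2 CPM centred on the mean. These were *Vaultrc5* for *Jun* (distance 0.091), *Lama5* for *Fosl2* (0.19), *Aoc2* for *Fos* (0.073), *Myo1f* for *Fosl1* (0.14), *Hjurp* for *Fosb* (0.074), *Il15ra* for *Junb* (0.030) and *Pde7a* for *Jund* (0.033). The nearest gene to *Jun* was at 32.3 and 21.8 CPM in EV RV, against 15.4 and 14.1 CPM in Tox RV cells. Such likeness was common for some members only. Within a distance of 0.2 lay 485 genes for *Junb*, 415 for *Jund*, 46 for *Fos* and 39 for *Fosb*. The numbers were 18 for *Jun*, 3 for *Fosl1* and 1 for *Fosl2*. They were high where a profile was itself near flat. The distance from a flat line was 0.28 for *Junb* and 0.27 for *Jund*, against 0.99 for *Jun*, 0.93 for *Fosl2* and 1.07 for *Fosl1*. Within the family the nearest pair was *Fosb* and *Jund* (0.46) and the farthest *Fosl1* and *Jun* (1.65), and *Jun* was nearest to *Fosl2* (0.54). *Fosb* was at 0.49 from a flat line, so its nearness to *Jund* is not read as a shared change.

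Other genes of the AP-1 pathway were described by fixed lists, and 0 of their members passed an adjusted p-value of 0.05 in either direction in edgeR's quasi-likelihood test or in DESeq2. Among 13 bZIP factors that can pair with the family, 6 were above 0 and 7 below, with a median log2 fold change of -0.01. *Batf* was at 38.9 TPM in EV RV replicate 1 and at 119 to 131 TPM in the other 3 libraries, so its log2 fold change of 0.55 (SE 0.55) was within its error. *Atf4*, which can also pair with these proteins, was at 243 to 354 TPM with a log2 fold change of -0.07. *Jdp2*, which encodes a repressor that pairs with JUN proteins, was at 10.7 and 11.95 TPM in EV RV, against 16.9 and 15.6 TPM in Tox RV cells, or a log2 fold change of 0.59 (SE 0.20, adjusted p = 0.897).

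Of 7 factors that bind beside AP-1, 1 was above 0 and 6 below, with a median of -0.25. *Irf4*, the partner of BATF and JUN proteins, was at 243 and 389 TPM in EV RV, against 221 and 237 TPM in Tox RV cells. *Irf8* was at 190 and 201 TPM in EV RV, against 134 and 135 TPM in Tox RV cells, or a log2 fold change of -0.46 (SE 0.16, adjusted p = 0.897). *Ets1* was at 335 and 304 TPM in EV RV, against 359 and 368 TPM in Tox RV cells (log2 fold change 0.27). The groups of *Irf8* and *Ets1* did not overlap on either scale. Those of *Irf4* did not overlap in TPM but did in TMM-scaled CPM, at 659 and 1110 with the empty vector and 652 and 698 with Tox RV. In TMM-scaled CPM 3 of the 7 factors did not overlap, beside 36.0% of all genes tested.

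The kinases from the T cell receptor to the MAP kinases were tested in 29 of 30 genes, 13 above 0 and 16 below, with log2 fold changes of -0.46 to 0.42 and a median of -0.06. *Map2k3*, which encodes an activator of p38 kinases, was at 92.3 to 114 TPM. Of 12 factors that act on the *Fos* and *Jun* promoters, 6 were above 0 and 6 below, with a median of -0.20. *Crem*, which encodes activators and repressors at CRE sites, was at 49.6 and 65.9 TPM in EV RV, against 26.8 and 31.9 TPM in Tox RV cells, or a log2 fold change of -0.89 (SE 0.23, edgeR adjusted p = 0.897, DESeq2 adjusted p = 0.293). *Mkl2*, a coactivator of SRF, was at 11.9 and 7.88 TPM in EV RV, against 5.87 and 5.95 TPM in Tox RV cells (log2 fold change -0.69, SE 0.24). *Stat3* was at 135 to 144 TPM (log2 fold change 0.07). The groups of *Crem* and *Mkl2* did not overlap. In TMM-scaled CPM 4 of the 12 factors did not overlap, beside 36.0% of all genes tested.

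Of 10 regulators of JUN protein or AU-rich mRNA turnover, 4 were above 0 and 6 below, with a median of -0.22. *Ndfip1*, an activator of the JunB ubiquitin ligase Itch, was at 535 and 533 TPM in EV RV, against 607 and 562 TPM in Tox RV cells (log2 fold change 0.21), and *Khsrp* at 67.5 to 101 TPM (log2 fold change -0.24). Of 16 genes known to be induced early after T cell receptor stimulation, 4 were above 0 and 12 below, with a median of -0.15. *Nr4a2* was at 7.83 and 7.03 TPM in EV RV, against 12 and 9.87 TPM in Tox RV cells (log2 fold change 0.64, SE 0.19). *Myc* was at 168 and 117 TPM in EV RV, against 100.2 and 80.3 TPM in Tox RV cells (log2 fold change -0.57, SE 0.23). The most abundant of these genes were *Dusp2* and *Dusp5*, phosphatases that act on MAP kinases, with log2 fold changes of 0.07 and -0.25.

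Of 16 T cell genes known to have AP-1 sites in their control regions, 10 were above 0 and 6 below. The median was 0.28 and the range -0.87 to 1.41. Their SE ran from 0.17 to 1.13, and that of the gene at 1.41 was 0.76, so the median is not read as a shift of the list. *Lta*, which encodes lymphotoxin alpha, was at 65.9 and 63.3 TPM in EV RV, against 122 and 86.4 TPM in Tox RV cells, or a log2 fold change of 0.77 (SE 0.22, edgeR adjusted p = 0.897, DESeq2 adjusted p = 0.571). *Il2ra*, the most abundant, was at 436 and 490 TPM in EV RV, against 379 and 336 TPM in Tox RV cells (log2 fold change -0.29). *Cd44* was at 192 and 208 TPM in EV RV, against 130 and 167 TPM in Tox RV cells (log2 fold change -0.35). The groups did not overlap in these 3 genes, with *Lta* higher and *Il2ra* and *Cd44* lower in Tox RV cells. In TMM-scaled CPM 5 of the 16 did not overlap, beside 36.0% of all genes tested.

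**Figure D4:**
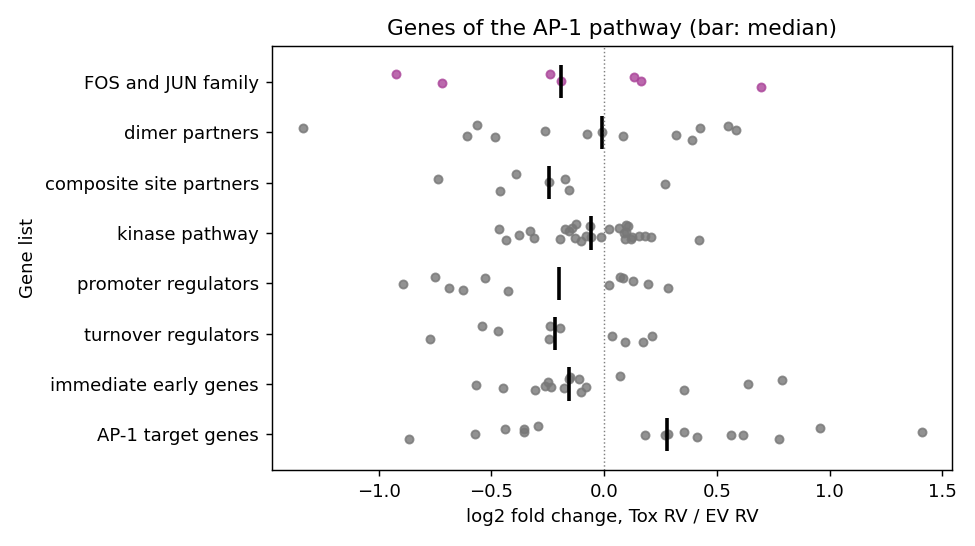
Log2 fold change of Tox RV over EV RV for each gene tested in the family (purple) and in 7 lists of the AP-1 pathway (grey), with a black bar at the median. The medians run from -0.25 for the factors that bind beside AP-1 to 0.28 for the AP-1 target genes, and each list holds genes on both sides of 0. The SE of single genes, up to 1.13 among the AP-1 target genes, is not drawn.

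Heat shock genes are known to be induced together with *Fos* and *Jun* when cells are handled. Of 6 such genes, 4 were above 0 and 2 below, with a median of 0.10. *Hspa8* was at 4359 and 4459 TPM in EV RV, against 4809 and 5234 TPM in Tox RV cells, while *Hspa1a* was at 5.09 and 5.60 TPM in EV RV, against 2.62 and 2.44 TPM in Tox RV cells (log2 fold change -0.998, SE 0.22, edgeR adjusted p = 0.897). The other gene below 0, *Hspa1b*, overlapped between the groups (log2 fold change -0.11). It was at 8.68 and 7.15 TPM in EV RV, against 5.60 and 8.19 TPM in Tox RV cells. *Hsph1* was at 37.9 to 47.1 TPM (log2 fold change 0.24). The part of handling in the *Jun* and *Fosl2* values was not tested.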

How the data were processed

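RNA-seq values of 4 libraries of GFP+ CD4 T cells were used, with groups and replicate numbers from the sample titles. After FastQC, the authors used bowtie on mm10 transcripts and RSEM for gene levels, 1 library per file (full tool versions were not given in the sources used here). The deposited expected counts were not normalized, and the deposited TPM and FPKM were computed by RSEM. A deposited table of the series named TPM has columns that sum to 461343 to 515117 and was read as RPKM scaled by the authors. FPKM and RPKM served only as alternatives for the shares.

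Expected counts were rounded, and edgeR 4.0.16 in R 4.3.3 was used (filterByExpr with a minimum count of 10, TMM, glmQLFit and glmQLFTest, no block), which left 14143 genes. P-values were adjusted by Benjamini-Hochberg over all genes tested. Standard errors came from the fold change and the F statistic, and 95% intervals from the t distribution with the fit's degrees of freedom (median 5.77). DESeq2 1.42.0 and limma 3.58.1 on log2(TPM + 1) and log2(TPM + 0.1) were alternatives, beside other scalings, no filter, a replicate block and leaving out each library. The tests were tested on simulated data with known fold changes. Library depth was 46989997 to 74548723 expected counts. P-values set the difference between the groups against the spread between libraries, 2 per group. In edgeR this spread was partly borrowed from other genes (a median of 3.77 prior degrees of freedom).

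Replicate numbers are not stated to mark one mouse across the groups, so no block was used. Named genes were the 7 members, *Tox*, the 2 most abundant members of each list (markers included), list members with an unadjusted p below 0.05 in edgeR or an adjusted p below 0.05 in DESeq2, and the gene nearest in profile to each member. Other genes (*Cd4*, *Ncr1*, *Ms4a1*, *Pax5*, *Lyz2*, *Hspa1b*, *Rn45s* and *Ccdc85b*) are named as checks. A gene that this rule names is not reported here. The members and lists were chosen with earlier results of these data known. Promoter sequences and positions are from RefSeq on GRCm38.p6, and exon numbers from GENCODE M21.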

Additional observations from a re-analysis of the deposited data

How the results depend on the processing

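Direction held for *Jun*, *Fosl2*, *Fos*, *Fosl1* and *Jund* under every setting run, and 0 members were called under any setting with all 4 libraries. For *Jun* and *Fosl2*, whose groups do not overlap, leaving out 1 library could hardly change the direction, so those fits add little on it. With 1 library left out the log2 fold change ranged from -1.19 to -0.59 for *Jun*, -1.12 to -0.41 for *Fosl2*, -0.52 to -0.0082 for *Fos*, 0.23 to 1.23 for *Fosl1*, -0.31 to -0.071 for *Jund*, -0.24 to 0.43 for *Fosb* (below 0 without Tox RV replicate 2) and -0.012 to 0.32 for *Junb* (below 0 without Tox RV replicate 1). Members called numbered 0 to 1 in these fits (*Jun*, without EV RV replicate 2), all genes called 1 to 600 (600 without EV RV replicate 2), and members with non-overlapping groups 4 to 6, while 56.4% to 84% of all genes did not overlap in these fits. A group left with 1 library was assumed to vary like the other. Over all genes, calls numbered 22 with DESeq2, 22 with no filter on low counts and 16 under the replicate block, against 0 (512 genes at an unadjusted p below 0.05). With the replicate block the log2 fold change was -0.89 for *Jun* (adjusted p = 0.172) and -0.76 for *Fosl2* (adjusted p = 0.224), and it changed no call of a member. Same-numbered libraries deviated together with a correlation of 0.30 over genes, but with 2 pairs a shared number does not show pairing. Scaling by library totals moved the median of all genes to 0.12 and gave 4 members with non-overlapping groups (*Fosl1* and *Junb* higher, *Fosl2* and *Jun* lower) while 39.0% of all genes did not overlap. The log2 fold change of *Jun* was then -0.78. Library totals without *Rn45s* were added after seeing the data and kept each member's direction. The share of *Junb* in EV RV cells was 45.0% in the RPKM table. *Fosl1* and *Fosb*, at 34 to 130 counts per library, are the members that depth limits most.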
